A study of Mus musculus with 38 samples.

Results

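The genes described here are 10 genes of cellular iron handling, namely Tfrc, Steap3, Slc11a2, Slc11a1, Fth1, Ftl1, Slc40a1, Hmox1, Aco1 and Ireb2. They were listed by name and by no threshold on a measured value, although with earlier results of these data known. All 10 were found among the 55487 gene identifiers of each count table. The 38 mouse RNA-seq libraries form 18 groups and come from 3 kinds of cell. The BV2 line stands for microglia, the GL261 line for glioma (it stably expresses pEGFP-N1), and bone marrow-derived macrophages (BMDM) were primary wild-type cells. Cells were kept for 16 h in normoxia (21% oxygen) or hypoxia (below 0.1% oxygen), either as monocultures or in contact with the other line, at 2 glioma cells for each BV2 cell and equal numbers of glioma cells and BMDM. A separate experiment used BV2 cells and BMDM given the solvent DMSO in normoxia, DMSO in hypoxia, or the histone deacetylase inhibitor panobinostat (10 nM) in hypoxia. There were 2 libraries per group, and 3 in the BMDM co-culture groups. Medium held 2% serum for BV2 cells and 10% for BMDM, so cell type and medium cannot be told apart, and the labels give no medium for GL261 cells grown alone. The labels call the BV2 and GL261 replicates of the experiment with monocultures and co-cultures biological. The other libraries are those of BMDM and those of BV2 cells in the panobinostat experiment. For them nothing says that replicates came from separate animals or cultures, so p-values there measure the spread between these libraries.

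Cells take up iron bound to transferrin through the transferrin receptor, encoded by Tfrc. In the endosome the reductase Steap3 converts the iron to its ferrous form, and the transporter Slc11a2 (DMT1) carries it into the cytosol. Slc11a1 (NRAMP1) is a related transporter of the phagosome membrane of macrophages. Iron that is not used is stored in ferritin, a shell of heavy chains (Fth1) and light chains (Ftl1), or leaves the cell through ferroportin (Slc40a1). Haem oxygenase 1 (Hmox1) releases iron from haem, which makes it central to macrophages that recycle red cells. Aco1 and Ireb2 encode the iron regulatory proteins, which bind RNA hairpins called iron-responsive elements when iron is scarce. Bound elements in the 5′ untranslated region block translation, and bound elements in the 3′ untranslated region of Tfrc protect its mRNA from decay. Read counts measure the level of an mRNA, not its translation.

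The hairpins are shown because they are the sites through which the iron regulatory proteins are known to act on Tfrc, ferritin and ferroportin mRNA. They were searched for as a C, 5 bases, the loop CAGTGN and 5 bases that pair with the first 5, with G-U pairs allowed, in GENCODE transcripts on GRCm38. The capitals mark the loop. Fth1, Ftl1 and Slc40a1 each held 1 in the 5′ untranslated region and Tfrc held 4 in the 3′ untranslated region, and no other member matched these letters. Slc11a2 is known to carry an iron-responsive element in the 3′ untranslated region of some transcripts, which this strict form does not find. Of 21901 protein-coding genes, 0.142% held such a hairpin in the 5′ and 0.589% in the 3′ untranslated region.
Fth1, chr19:9982732-9982761, plus strand: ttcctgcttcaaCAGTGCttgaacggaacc
Ftl1, chr7:45459778-45459807, minus strand: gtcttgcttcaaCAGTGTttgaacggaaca
Slc40a1, chr1:45925464-45925493, minus strand: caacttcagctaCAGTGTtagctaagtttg
Tfrc, chr16:32631219-32631248, plus strand: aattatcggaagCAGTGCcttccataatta
Tfrc, chr16:32631598-32631627, plus strand: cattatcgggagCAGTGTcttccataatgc
Tfrc, chr16:32631663-32631692, plus strand: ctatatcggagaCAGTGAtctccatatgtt
Tfrc, chr16:32631710-32631739, plus strand: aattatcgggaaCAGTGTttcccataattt

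Libraries held 9634700 to 27238933 counts, so that 3 counts, the floor used here, are 0.110 to 0.311 CPM (counts scaled to a common library total, as usual for this unit), and intervals and floors cover counting error only. The 10 markers of myeloid cells summed to 2035 to 2121 CPM in normoxic BV2 monocultures, 7742 to 8776 CPM in normoxic BMDM monocultures and 8.05 to 10.0 CPM in normoxic GL261 monocultures. In the BMDM of the panobinostat experiment, 5 markers of fibroblasts (Col1a1, Col1a2, Col3a1, Pdgfrb and Dcn) summed to 20453 and 23237 CPM with DMSO in normoxia, 2673 and 13838 CPM with DMSO in hypoxia and 8757 and 14357 CPM with panobinostat, against 70.8 to 594.6 CPM in all other BMDM libraries. Myeloid markers there summed to 5804 to 9306 CPM with DMSO in normoxia, 3241 to 3948 CPM with DMSO in hypoxia and 804.0 to 1833 CPM with panobinostat. These sums rest on the collagens and Pdgfrb. Dcn alone held 0.693 to 5.02 CPM in those libraries, against 0 to 18.0 CPM in all other BMDM libraries. All 6 of those libraries held high levels of the collagens and Pdgfrb, so no value without them can be given. The part of the fibroblast markers in the results was not tested. The RNA of the co-culture partner was estimated at 0.565% to 0.952% of normoxic and 2.07% to 2.33% of hypoxic BV2 co-culture libraries. The estimates were 0.627% to 0.915% and 0.214% to 0.267% for GL261, and 1.34% to 3.71% and 1.66% to 5.94% for BMDM. They take the partner's genes to be as high in co-culture as in its monoculture, which was not tested. For BMDM the GL261 monocultures used were those counted with BV2 cells.

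In normoxic monocultures the ferritin mRNAs were the most abundant members of all 3 cell types, compared as CPM per kilobase of RefSeq mRNA. BV2 cells had 2652 CPM per kilobase of Fth1 and 1644 of Ftl1, followed by Slc11a1 (131.2), Hmox1 (107.1), Tfrc (70.7), Steap3 (24.3), Ireb2 (17.3), Aco1 (12.9), Slc11a2 (11.1) and Slc40a1 (8.67). GL261 cells had 392 CPM per kilobase of Ftl1 and 384 of Fth1, and Tfrc came next at 22.3. In GL261 cells Aco1 (17.9), Hmox1 (17.7) and Ireb2 (16.5 CPM per kilobase) lay close together, above Slc11a2 (8.52) and Steap3 (3.74), and Slc11a1 and Slc40a1 were at or under the floor. BMDM had 7343 CPM per kilobase of Ftl1 and 7081 of Fth1, then Hmox1 at 906, Slc11a1 at 151.7 and Steap3 at 16.3. Tfrc, at 6.03 CPM per kilobase, was among the 3 lowest members in BMDM, below Aco1 (11.9) and Slc11a2 (9.04) and near Slc40a1 (4.99) and Ireb2 (4.67). The Fth1 to Ftl1 ratio per length was 1.56 and 1.68 in the normoxic BV2 monocultures, 1.09 and 0.814 in those of GL261 and 0.876 and 1.04 in those of BMDM. The order of the ferritin chains changed between replicates in GL261 cells and BMDM. Of the 75-base words of Ftl1, 51.3% also occur in 8 other genes, mostly ferritin pseudogenes, so Ftl1 counts are uncertain. The share was 0.882% for Fth1 and 2.85% for Slc11a2, which lies across Gm5475 on the opposite strand, and whether the authors counted by strand is not given in the sources used here.

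BV2 and GL261 cells, counted in 1 table, differed in normoxia at 9 of the 10 members tested at an adjusted p under 0.05 (edgeR's quasi-likelihood test, Benjamini-Hochberg adjustment over all genes, the test used throughout), 8 higher and 1 lower in BV2 cells. Of these, Slc40a1 passed the filter on low counts only through the BV2 libraries and so had to differ. Slc11a1 passed it through the BV2 and the GL261 co-culture libraries, not through the GL261 monocultures compared here. Both are given as ratios of counts with no test. Over all tested genes 33.8% were called higher and 39.4% lower in BV2 cells, with a median log2 difference of -0.12. Slc40a1 had 0 counts in both GL261 monocultures and 25.5 and 33.0 CPM in BV2 cells, which made it at least 362-fold higher in BV2 cells against 3 counts over the pooled GL261 group. Slc11a1 had 4 counts over both GL261 libraries and 13950 over both BV2 libraries, a ratio of 2830 with a 95% exact counting interval of 1105 to 10388. Fth1 was 7.49-fold, Steap3 7.04-fold, Hmox1 6.56-fold, Ftl1 4.55-fold and Tfrc 3.44-fold higher in BV2 cells. Slc11a2 was 1.41-fold higher (log2 0.50, SE 0.18, adjusted p = 0.017), and lost the call without GL261 replicate 1 (adjusted p = 0.18) or BV2 replicate 2 (0.17). Aco1 was lower by 0.36 (SE 0.11, adjusted p = 0.0082), which did not hold without GL261 replicate 2 (adjusted p = 0.12), and Ireb2 did not pass the test (0.18, SE 0.14).

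**Figure D1:**
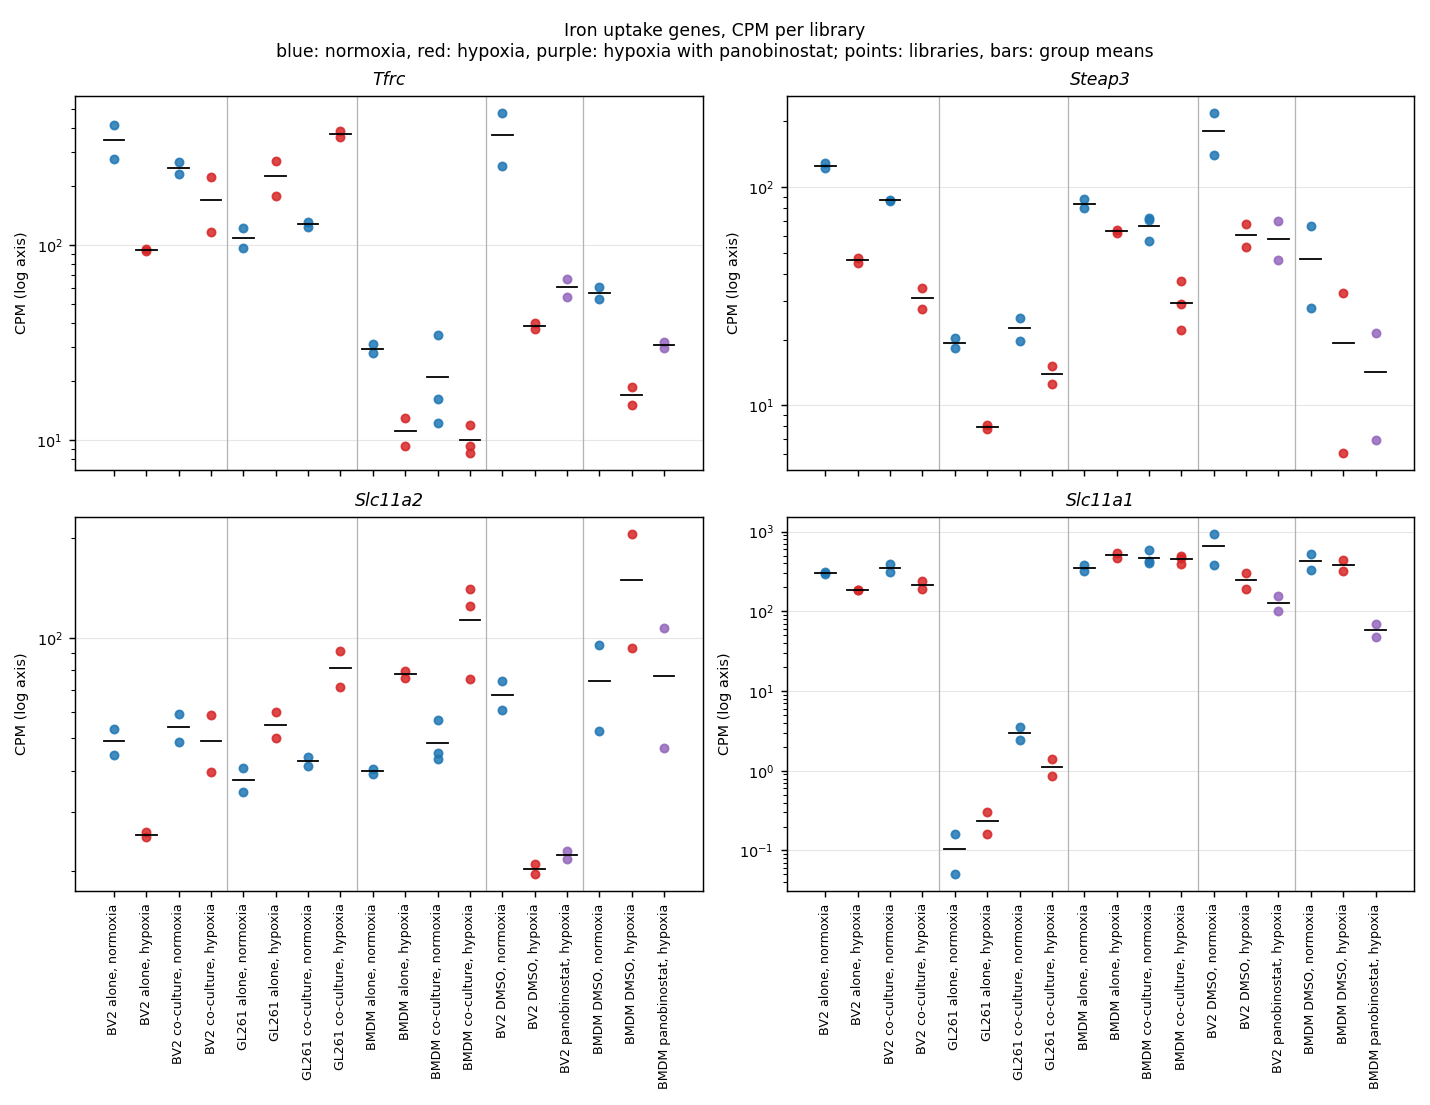
TMM-scaled CPM on log axes of the iron uptake genes in all 38 libraries, by group; points are libraries, bars group means, blue normoxia, red hypoxia and purple hypoxia with panobinostat. Tfrc is lower in hypoxia in the BV2 monocultures (95.5 and 93.7 against 277 and 415 CPM) and higher in the GL261 monocultures (271 and 179 against 96.6 and 122 CPM).

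Hypoxia was compared with normoxia in 8 settings. In BV2 monocultures 2 members were called higher and 5 lower, against 30.9% and 31.0% of all tested genes. In BV2 cells from co-culture 3 were higher and 5 lower (all genes 35.2% and 32.1%), and in BV2 cells with DMSO 1 was higher and 4 lower (17.2% and 20.2%). In GL261 monocultures 3 of the 9 tested members were higher and 2 lower (23.2% and 21.4%), and in GL261 cells from co-culture 3 were higher and 3 lower (26.8% and 25.6%). The lower members in co-culture include Slc11a1. For it the estimated share of BV2 RNA times the BV2 level was 77.8% to 80.0% of the measured level in normoxia and 37.1% to 46.6% in hypoxia. In BMDM monocultures 4 were higher and 1 lower (13.3% and 10.6%), in BMDM from co-culture 2 were higher and 2 lower (17.5% and 17.3%), and in BMDM with DMSO none was called (0.469% and 0.0134%). In those BMDM libraries the summed fibroblast markers were lower in hypoxia than in normoxia, although Dcn alone was not. The part of these markers in the changes of Tfrc, Slc40a1 and Hmox1 given for those libraries was not tested. At an unadjusted p under 0.05 the comparison of BMDM with DMSO had 3 members, beside 3786 of 14914 genes. DESeq2 called 3 members, and the replicate block (a term for the replicate number in the fit) called 5. Their counts over all genes are given at the end. The members' median log2 change was -0.26, -0.34 and 0.10 in BV2 cells alone, in co-culture and with DMSO, 0.00 and -0.19 in GL261 cells alone and in co-culture, and 0.42, 0.01 and 0.19 in BMDM alone, in co-culture and with DMSO. The median over all genes lay between -0.04 and 0.04 in each.

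Tfrc, the transferrin receptor, fell with hypoxia in BV2 cells and BMDM and rose in GL261 cells. In BV2 monocultures it went from 277 and 415 CPM to 95.5 and 93.7 CPM. That is a 3.66-fold fall (log2 -1.87, SE 0.23, adjusted p = 3.2e-06), with no overlap between the groups. With DMSO it went from 478 and 253 CPM to 37.3 and 39.8 CPM, a 9.49-fold fall (log2 -3.25, SE 0.31, adjusted p = 0.00015). These 2 BV2 experiments share no library, and the fall was called in both. In BV2 cells from co-culture the values were 267 and 231.5 CPM in normoxia and 225 and 117 CPM in hypoxia. The 1.46-fold fall there (log2 -0.55, SE 0.23, adjusted p = 0.042) was not called without normoxic replicate 1 (adjusted p = 0.14), without hypoxic replicate 2 (0.35) or by DESeq2 (0.28).

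In GL261 monocultures Tfrc went from 96.6 and 122 CPM to 271 and 179 CPM, a 2.07-fold rise (log2 1.05, SE 0.19, adjusted p = 0.0011). In GL261 cells from co-culture it went from 125 and 131.5 CPM to 383 and 360.4 CPM, a 2.90-fold rise (log2 1.54, SE 0.19, adjusted p = 5.7e-05). All 4 hypoxic GL261 libraries lay above all 4 normoxic ones. The hypoxia effect on Tfrc differed between BV2 and GL261 monocultures by -2.82 on the log2 scale (SE 0.35, adjusted p = 5.9e-06). Over all genes 18.7% of differences were called higher in BV2 cells and 18.7% lower, with a median difference of 0.15. Both differences, that of Tfrc and that of Slc11a2 given with that gene, were called when each of the 8 libraries was left out in turn.

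In BMDM monocultures Tfrc went from 31.0 and 27.9 CPM to 13.02 and 9.33 CPM (log2 -1.40, SE 0.41, adjusted p = 0.029). The adjusted p was 0.12 and 0.076 without normoxic replicate 1 or 2, and 0.075 and 0.19 without hypoxic replicate 1 or 2. In BMDM from co-culture the normoxic libraries held 16.3, 12.2 and 34.8 CPM and the hypoxic ones 8.63, 9.31 and 12.03 CPM. The groups did not overlap, although replicate 3 of normoxia lay far above the others, and the fall of 1.07 (SE 0.34, adjusted p = 0.029) was not called without it (-0.51, adjusted p = 0.11) or without hypoxic replicate 1 (0.071) or 2 (0.072). GL261 cells hold more Tfrc than BMDM, and the GL261 share of each hypoxic co-culture library times the level in hypoxic GL261 monocultures came to 3.71, 7.14 and 13.3 CPM. The library totals give 8.38, 8.54 and 12.2 CPM for Tfrc in those libraries, so the product is 44.3%, 83.5% and 109% of the measured level. In the normoxic co-culture libraries the product is 8.82% to 19.2% of the measured level. With DMSO, BMDM went from 53.1 and 61.1 CPM to 18.8 and 15.2 CPM, a change of -1.75 (SE 0.24) that did not pass the test (adjusted p = 0.055) and that DESeq2 called (adjusted p = 7.6e-06).

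**Figure D2:**
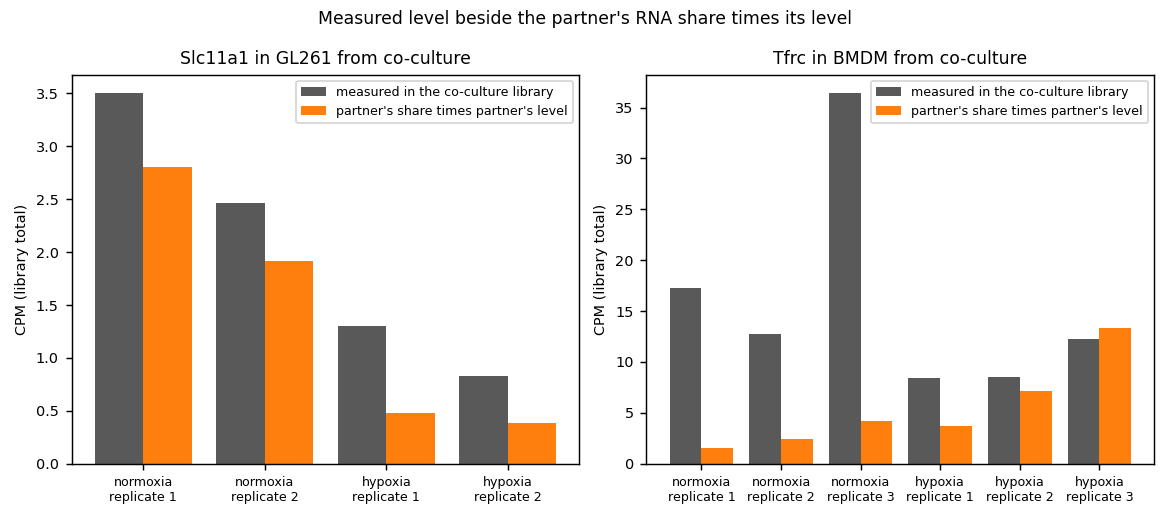
Plain CPM (counts over the library total) of Slc11a1 in GL261 and of Tfrc in BMDM from co-culture (grey bars, 1 per library), beside the partner's share of the RNA times the partner's monoculture level (orange bars). For Slc11a1 the product is 37.1% to 80.0% of the measured level, and for Tfrc it grows from 8.82% to 19.2% in normoxia to 44.3% to 109% in hypoxia.

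Steap3, the endosomal ferrireductase, was lower in hypoxia in all 8 settings and the fall was called in 6. In BV2 monocultures it went from 128.5 and 122 CPM to 44.9 and 47.5 CPM (2.71-fold, log2 -1.44, SE 0.12, adjusted p = 4.4e-08). In BV2 cells from co-culture it went from 86.7 and 87.7 CPM to 34.6 and 27.5 CPM (log2 -1.49, SE 0.12), and with DMSO from 219.5 and 140.5 CPM to 67.5 and 53.1 CPM (log2 -1.58, SE 0.28, adjusted p = 0.0025). The hypoxic BV2 libraries lay below the normoxic ones in each of the 3 settings. In GL261 monocultures it went from 20.4 and 18.2 CPM to 8.09 and 7.76 CPM (2.43-fold, log2 -1.28, SE 0.18, adjusted p = 0.00025). In GL261 cells from co-culture the fall was 0.70 (SE 0.18, adjusted p = 0.0071), and it was not called without normoxic replicate 1 (adjusted p = 0.10) or hypoxic replicate 2 (0.069). In BMDM from co-culture it went from 72.1, 56.8 and 70.5 CPM to 37.2, 22.0 and 29.0 CPM (2.26-fold, log2 -1.18, SE 0.18, adjusted p = 0.00064). The BMDM monocultures changed less, from 80.0 and 88.2 CPM to 63.5 and 61.7 CPM, which did not pass the test (-0.43, adjusted p = 0.17), and a difference between the BMDM settings was not called (-0.75, SE 0.28, adjusted p = 1). With DMSO the BMDM libraries spread widely, at 27.8 and 66.2 CPM in normoxia and 6.07 and 32.7 CPM in hypoxia.

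Slc11a2, the ferrous iron transporter, moved with hypoxia in a direction that depended on the cell. In BV2 monocultures it went from 44.6 and 53.5 CPM to 25.3 and 26.2 CPM (1.90-fold fall, log2 -0.93, SE 0.17, adjusted p = 0.00014). With DMSO it went from 74.4 and 60.7 CPM to 21.1 and 19.7 CPM (3.32-fold fall, log2 -1.73, SE 0.21, adjusted p = 0.00044). In BV2 cells from co-culture it held 59.3 and 48.9 CPM in normoxia and 58.6 and 39.7 CPM in hypoxia, groups that overlap (-0.13, SE 0.16, adjusted p = 0.48), and without hypoxic replicate 1 the change was called (-0.52, adjusted p = 0.013). In GL261 monocultures it rose from 34.5 and 40.8 CPM to 59.9 and 50.2 CPM (log2 0.55, SE 0.16, adjusted p = 0.014), a call lost without normoxic replicate 1 (adjusted p = 0.11) or hypoxic replicate 1 (0.079). In GL261 cells from co-culture it rose from 44.0 and 41.3 CPM to 91.3 and 71.2 CPM (1.90-fold, log2 0.93, SE 0.16, adjusted p = 0.00049). In BMDM monocultures it rose from 40.6 and 39.2 CPM to 79.9 and 75.8 CPM (1.95-fold, log2 0.96, SE 0.25, adjusted p = 0.019), with adjusted p of 0.087 to 0.14 when any 1 of the 4 libraries was left out. In BMDM from co-culture it rose from 43.4, 56.8 and 45.3 CPM to 75.4, 140.5 and 125 CPM (2.35-fold, log2 1.23, SE 0.21, adjusted p = 0.0011). The effect differed between BV2 and GL261 monocultures by -1.38 (SE 0.25, adjusted p = 0.00027). The difference between BV2 cells and BMDM with DMSO, -2.69 (SE 0.65), did not pass the test (adjusted p = 0.082), and it was called without hypoxic BMDM replicate 2 (adjusted p = 0.016).

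Slc11a1, the phagosomal transporter, fell with hypoxia in BV2 cells and did not pass the test in BMDM. BV2 monocultures went from 297.5 and 310 CPM to 184 and 188 CPM (1.63-fold, log2 -0.71, SE 0.14, adjusted p = 0.00027), and BV2 cells from co-culture from 391 and 307 CPM to 242 and 189 CPM (log2 -0.69, SE 0.14). With DMSO the normoxic libraries differed widely, at 944 and 384 CPM, and the hypoxic ones held 299.5 and 189 CPM. The fall there of 1.44 (SE 0.41, adjusted p = 0.020) was smaller and not called without normoxic replicate 1 (-0.63, adjusted p = 0.17), nor called without hypoxic replicate 2 (0.061). In BMDM monocultures it was 319.5 and 383 CPM in normoxia and 473 and 532 CPM in hypoxia (0.52, SE 0.20, adjusted p = 0.090), and in co-culture and with DMSO the log2 changes were -0.05 and -0.19. GL261 monocultures held 1 and 3 counts in normoxia and 8 and 3 in hypoxia. The fall called in GL261 cells from co-culture is given further below, beside the share of BV2 RNA in those libraries.

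**Figure D3:**
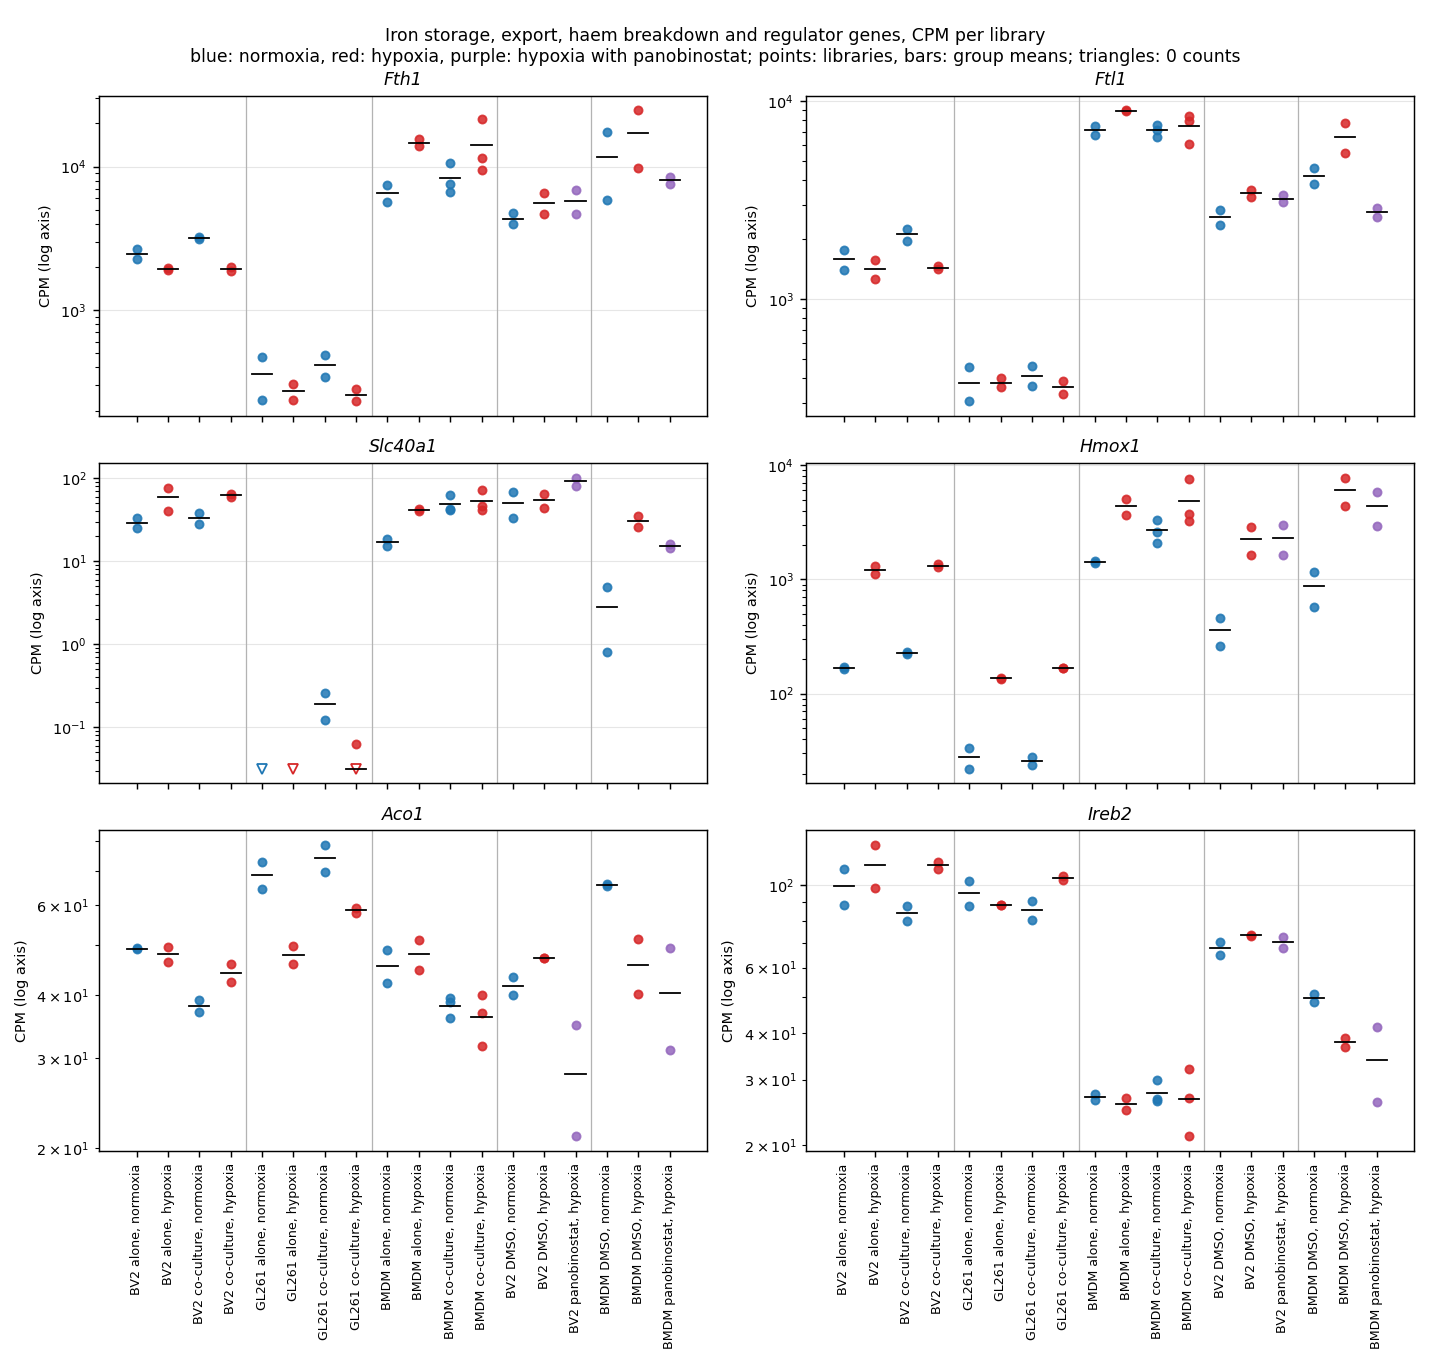
TMM-scaled CPM on log axes of the storage, export, haem breakdown and regulator genes in all 38 libraries, by group, with points for libraries, bars for group means and triangles for libraries with 0 counts; colours are blue for normoxia, red for hypoxia and purple for hypoxia with panobinostat. Hmox1 is higher in hypoxia in every cell type (for example 1124 and 1301 against 171.5 and 165 CPM in BV2 monocultures), and Slc40a1 has 0 counts in the GL261 monocultures.

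Fth1, the ferritin heavy chain with ferroxidase activity, rose with hypoxia in BMDM monocultures and fell in BV2 cells. BMDM monocultures went from 5660.5 and 7497 CPM to 13950 and 15462 CPM (2.24-fold, log2 1.16, SE 0.35, adjusted p = 0.036), with no overlap, and adjusted p was 0.10 to 0.25 when any 1 of the 4 libraries was left out. In BMDM from co-culture it held 7613, 10648 and 6677 CPM in normoxia and 11545, 21330 and 9421 CPM in hypoxia. The groups overlap, each hypoxic library lies above the normoxic library of the same number, and the change of 0.76 (SE 0.29) did not pass the test (adjusted p = 0.060). It was called with the replicate block (0.71, adjusted p = 0.0081), by DESeq2 (adjusted p = 0.015), and without normoxic replicate 2 (0.041) or hypoxic replicate 1 (0.047) or 3 (0.023). In BV2 monocultures it went from 2662 and 2266 CPM to 1980 and 1902 CPM, a fall of 0.34 (SE 0.12, adjusted p = 0.025), not called without normoxic replicate 1 (adjusted p = 0.21) or without hypoxic replicate 1 (0.060) or 2 (0.11). BV2 cells from co-culture went from 3220 and 3137 CPM to 1994.5 and 1885 CPM (log2 -0.71, SE 0.12, adjusted p = 0.00011). With DMSO the BV2 change was 0.37 (SE 0.32, adjusted p = 0.39) and in GL261 cells it was -0.39 alone and -0.69 in co-culture (adjusted p = 0.28 and 0.059), none of them past the threshold. Without normoxic replicate 2 both GL261 changes were called (-0.77, adjusted p = 0.024, and -0.89, adjusted p = 0.045), and the one in co-culture also with only those groups in the fit (0.0068) or no filter (0.00027).

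Ftl1, the ferritin light chain, passed the test in 1 of the 8 hypoxia comparisons. In BV2 cells from co-culture it went from 2270 and 1971.5 CPM to 1475 and 1412 CPM (log2 -0.55, SE 0.15, adjusted p = 0.0032). In BMDM monocultures it held 6732 and 7484 CPM in normoxia and 8992 and 8886 CPM in hypoxia (0.33, SE 0.18, adjusted p = 0.22). With counts of Fth-ps2, Fth-ps3, Ftl1-ps1 and Ftl1-ps2 added, the count of members called stayed the same in all 24 comparisons. Adding them does not reach reads counted for no gene or for other genes that share sequence with Ftl1, so Ftl1 counts stay uncertain. The Fth1 to Ftl1 ratio per length went from 0.876 and 1.04 to 1.62 and 1.81 in BMDM monocultures, and the ferritin mRNAs together from 1.33% and 1.62% to 2.10% and 2.168% of the library. In the BMDM with DMSO that ratio was 4.74 and 1.33 in normoxia and 3.32 and 1.86 in hypoxia, so that replicates differed more than the oxygen levels did.

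Slc40a1, the iron exporter, rose with hypoxia in BV2 cells of the first experiment and in BMDM monocultures. BV2 monocultures went from 25.5 and 33.0 CPM to 40.8 and 77.3 CPM (2.02-fold, log2 1.02, SE 0.22, adjusted p = 0.00087). BV2 cells from co-culture went from 38.2 and 28.2 CPM to 59.6 and 64.9 CPM (log2 0.91, SE 0.23, adjusted p = 0.0021). In BV2 cells with DMSO the groups overlap, at 67.9 and 33.6 CPM in normoxia and 64.4 and 43.6 CPM in hypoxia (0.09, SE 0.32, adjusted p = 0.85). BMDM monocultures went from 18.6 and 15.1 CPM to 42.7 and 40.4 CPM (2.47-fold, log2 1.30, SE 0.28, adjusted p = 0.0071), a call lost without normoxic replicate 2 (adjusted p = 0.078). In BMDM from co-culture it was 62.1, 42.8 and 41.7 CPM in normoxia and 71.2, 45.6 and 40.9 CPM in hypoxia, groups that overlap (0.10, SE 0.22, adjusted p = 0.75). BMDM with DMSO held 0.804 and 4.85 CPM in normoxia and 35.0 and 25.9 CPM in hypoxia (3.41, SE 0.77), which did not pass the test (adjusted p = 0.085) but was called by DESeq2 (adjusted p = 0.00023).

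Hmox1, which opens the haem ring and frees its iron, was higher in hypoxia in all 8 settings and passed the test in 7. In BV2 monocultures it went from 171.5 and 165 CPM to 1124 and 1301 CPM (7.21-fold, log2 2.85, SE 0.12, adjusted p = 6.4e-11). BV2 cells from co-culture went from 234 and 223 CPM to 1373 and 1272 CPM (5.79-fold), and those with DMSO from 456 and 263 CPM to 2866.5 and 1630 CPM (6.26-fold, adjusted p = 0.0013). In GL261 monocultures it went from 33.5 and 22.0 CPM to 135 and 137 CPM (4.91-fold, log2 2.29, SE 0.18, adjusted p = 6.4e-06), and in co-culture from 28.0 and 23.6 CPM to 167 and 169 CPM (log2 2.70, SE 0.19). In BMDM monocultures it went from 1380 and 1463 CPM to 5072 and 3663.5 CPM (3.07-fold, log2 1.62, SE 0.37, adjusted p = 0.011). That call was lost without normoxic replicate 1 (adjusted p = 0.095) or 2 (0.076) or hypoxic replicate 1 (0.083). In BMDM from co-culture the normoxic libraries held 2615, 3339.5 and 2099 CPM and the hypoxic ones 3728, 7538 and 3225 CPM. These groups overlap, and each hypoxic library lies above the normoxic library of the same number. The rise of 0.85 (SE 0.30, adjusted p = 0.047) was 0.36 without hypoxic replicate 2 (adjusted p = 0.21), and was not called without normoxic replicate 1 (0.12) or 3 (0.14). With DMSO, BMDM went from 1168 and 574 CPM to 7789 and 4357 CPM (2.80, SE 0.63, adjusted p = 0.084), which DESeq2 called (adjusted p = 4.5e-05).

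The log2 changes of the iron regulatory protein genes with hypoxia lay between -0.52 and 0.43. Aco1, whose product is also the cytosolic aconitase, fell with hypoxia in GL261 cells, from 64.5 and 72.9 CPM to 49.8 and 45.9 CPM in monoculture (log2 -0.52, SE 0.13, adjusted p = 0.0062), a call lost without normoxic replicate 2 (adjusted p = 0.054). In GL261 cells from co-culture it went from 78.8 and 69.8 CPM to 59.3 and 57.9 CPM (log2 -0.34, SE 0.13, adjusted p = 0.041), with adjusted p of 0.092 to 0.29 when any 1 of the 4 libraries was left out and 0.11 by DESeq2. In BV2 cells and BMDM its log2 changes lay between -0.52 and 0.22 and none was called. Ireb2 rose in BV2 cells from co-culture, from 87.8 and 80.2 CPM to 116 and 111 CPM (log2 0.43, SE 0.14, adjusted p = 0.012), not called without normoxic replicate 2 (adjusted p = 0.082) or without hypoxic replicate 1 (0.11) or 2 (0.054). In the other 7 hypoxia comparisons its log2 change lay between -0.40 and 0.29 and did not pass the test. It was called in BV2 monocultures without hypoxic replicate 1 (0.39, adjusted p = 0.039), and in GL261 cells from co-culture with only those groups in the fit (0.30, adjusted p = 0.037). BMDM of the first experiment held 21.1 to 32.1 CPM of Ireb2 in all 10 libraries.

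Beside Tfrc and Slc11a2, the hypoxia effect differed between BV2 and GL261 monocultures for Hmox1 (0.66, SE 0.22, adjusted p = 0.024) and Aco1 (0.59, SE 0.16, adjusted p = 0.0076). The Hmox1 difference was not called without GL261 normoxic replicate 1 (0.26, adjusted p = 0.38), GL261 hypoxic replicate 1 (0.064) or 2 (0.074), BV2 normoxic replicate 2 (0.12) or BV2 hypoxic replicate 2 (0.099). The Aco1 difference was not called without GL261 normoxic replicate 2 (adjusted p = 0.13), GL261 hypoxic replicate 2 (0.089) or BV2 normoxic replicate 2 (0.070). Steap3, which fell in both cell types, differed by -0.06 (SE 0.21, adjusted p = 0.93), Fth1 by 0.14 and Ftl1 by -0.07. The differences of Ireb2 (0.40, SE 0.20; called without BV2 hypoxic replicate 1, adjusted p = 0.037) and Slc11a1 (-1.78, SE 0.83) did not pass the test, and for Slc40a1 none can be estimated because GL261 cells had no counts.

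**Figure D4:**
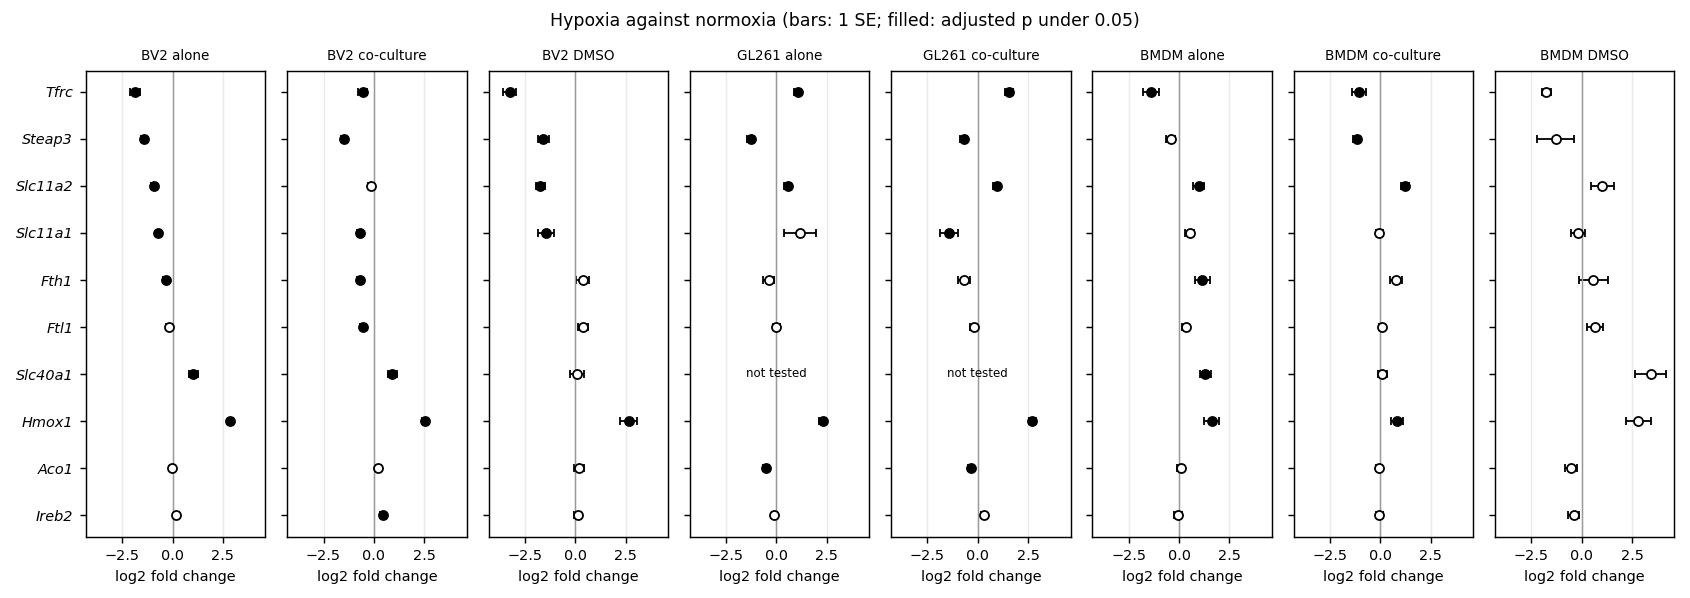
Log2 fold change of hypoxia against normoxia (x axis) of the 10 members in the 8 settings; bars are 1 SE and filled points have an adjusted p under 0.05. Tfrc lies at -1.87 in BV2 cells alone and at 1.05 in GL261 cells alone, while Steap3 lies below 0 and Hmox1 above 0 in all 8 panels.

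Co-culture with GL261 cells changed few members in BV2 cells. In normoxia 1 was higher and 2 lower (5.77% and 9.14% of all genes), and in hypoxia 2 were higher and 1 lower (8.13% and 7.57%). Steap3 was lower in co-culture at both oxygen levels, by 0.52 in normoxia (SE 0.12, adjusted p = 0.0090) and by 0.57 in hypoxia (SE 0.12, adjusted p = 0.0046). The normoxic call was lost without co-culture replicate 1 (adjusted p = 0.070). In normoxia Hmox1 was 1.36-fold higher (log2 0.44, adjusted p = 0.020) and Aco1 1.30-fold lower (log2 -0.37, adjusted p = 0.036). When any 1 of the 4 libraries was left out, adjusted p was 0.062 to 0.16 for Hmox1 and 0.095 to 0.21 for Aco1. Tfrc (-0.47), Fth1 (0.37) and Ftl1 (0.41) did not pass the test in normoxia, but were called without monoculture replicate 1 (adjusted p = 0.047, 0.048 and 0.034). DESeq2 called Fth1 (adjusted p = 0.0079) and Ftl1 (0.024), as did the fit of only these groups (0.034 and 0.026), and Fth1 was also called without genes high in the partner (0.042). With no filter on low counts Tfrc (0.0035), Fth1 (0.0077) and Ftl1 (0.0025) were all called. In hypoxia Tfrc was 1.81-fold higher (log2 0.85, SE 0.23, adjusted p = 0.018) and Slc11a2 1.91-fold higher (log2 0.93, SE 0.17, adjusted p = 0.0011) in co-culture than alone. Hypoxic GL261 cells hold 224 CPM of Tfrc, and their share of the 2 BV2 libraries times that level is 2.13% and 4.62% of the measured Tfrc. The Tfrc call was lost without co-culture replicate 1 (0.23, adjusted p = 0.48) or monoculture replicate 1 (0.087) or 2 (0.093), and DESeq2 gave an adjusted p of 0.17.

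The hypoxia effect on Tfrc was smaller in BV2 cells from co-culture than alone, with a difference of 1.33 (SE 0.32, adjusted p = 0.043), against 1.16% of all genes with a higher and 1.03% with a lower effect in co-culture. It was not called without normoxic monoculture replicate 2 (adjusted p = 0.18), hypoxic monoculture replicate 1 (0.14) or 2 (0.068), normoxic co-culture replicate 1 (0.052) or 2 (0.11), or hypoxic co-culture replicate 1 (0.68, adjusted p = 0.16). DESeq2 gave an adjusted p of 0.14. The difference for Slc11a2 was 0.79 (SE 0.23, adjusted p = 0.078), called without hypoxic co-culture replicate 2 (adjusted p = 0.026), and the other 8 differences lay between -0.39 and 0.25.

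Of the 9 members tested in GL261 cells, 1 was higher in co-culture in normoxia (0.323% of all genes higher, 0.191% lower) and 0 in hypoxia (0.889% and 0.500%). In hypoxia 5 members and 2282 of 15189 genes had an unadjusted p under 0.05, and DESeq2 called 2 members. The member higher in normoxia was Slc11a1, with 94 counts over the normoxic co-culture libraries against 4 over the monocultures, a ratio of 27.5 with a 95% exact counting interval of 10.4 to 103. It passed the filter on low counts only through the co-culture libraries, so its call (adjusted p = 0.0095) carries no weight of its own, and it was lost without either monoculture replicate (0.085 and 0.092) or co-culture replicate 1 (0.099). BV2 cells hold 306 CPM of Slc11a1, and their share of each normoxic GL261 co-culture library times that level was 80.0% and 77.8% of the 3.504 and 2.47 CPM measured, and 37.1% and 46.6% of the 1.30 and 0.833 CPM in hypoxia. The fall of Slc11a1 with hypoxia in GL261 cells from co-culture (log2 -1.42, SE 0.44, adjusted p = 0.017) moved with that share, which was 0.627% to 0.915% in normoxia and 0.214% to 0.267% in hypoxia. It was not called without normoxic replicate 1 (adjusted p = 0.16) or hypoxic replicate 2 (0.14), and its cause was not tested. In hypoxia the largest other differences between co-culture and monoculture were 0.81 for Steap3 (adjusted p = 0.061), 0.72 for Tfrc (0.092) and 0.56 for Slc11a2 (0.12). Tfrc was called without hypoxic monoculture replicate 1 (1.05, adjusted p = 0.013). The hypoxia effect differed between GL261 settings for no member and no gene (0.00% in both directions), with 3 members and 1354 genes at an unadjusted p under 0.05 and 0 members and 47 genes called by DESeq2.

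In BMDM co-culture with GL261 cells raised Slc40a1 in normoxia, from 18.6 and 15.1 CPM to 62.1, 42.8 and 41.7 CPM (2.91-fold, log2 1.54, SE 0.26, adjusted p = 0.017), with no overlap (1.57% of all genes higher, 0.0675% lower). The call was lost without monoculture replicate 1 (adjusted p = 0.15) or 2 (0.22). Slc40a1 had 0 counts in GL261 monocultures, and 6 over the normoxic GL261 libraries from co-culture with BV2 cells. In hypoxia Steap3 was 2.13-fold lower in co-culture (log2 -1.09, SE 0.20, adjusted p = 0.012), against 4.06% of all genes higher and 3.05% lower, and the call was lost without monoculture replicate 1 (adjusted p = 0.10) or 2 (0.11). Slc11a2 in the same comparison (0.55, adjusted p = 0.18) was called without co-culture replicate 1 (0.79, adjusted p = 0.013). Hmox1 was 2615, 3339.5 and 2099 CPM in normoxic co-culture against 1380 and 1463 CPM alone, groups that do not overlap, but the difference of 0.92 (SE 0.34) did not pass the test (adjusted p = 0.28). No hypoxia effect differed between the BMDM settings at an adjusted p under 0.05 (0.00% in both directions), with 2 members and 636 genes at an unadjusted p under 0.05 and 0 members and 8 genes called by DESeq2. The widest such difference among the members was that of Slc40a1 (-1.20, SE 0.35).

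Panobinostat was compared with DMSO in hypoxia, and no member passed the test in either cell type. In BV2 cells 7.21% of all genes were called higher and 7.39% lower. DESeq2 called 0 members and the replicate block 4, and the block's count over all genes is given at the end. At an unadjusted p under 0.05 there were 4163 of 13294 genes and 4 members. The members with the widest differences were Slc11a1, at 299.5 and 189 CPM with DMSO and 155 and 102 CPM with panobinostat (-0.92, SE 0.41, adjusted p = 0.15), and Slc40a1, at 64.4 and 43.6 CPM and 102 and 81.1 CPM (0.76, SE 0.32, adjusted p = 0.14). Aco1 held 47.2 and 47.1 CPM with DMSO and 21.1 and 34.8 CPM with panobinostat (-0.75, SE 0.25, adjusted p = 0.072). Tfrc held 37.3 and 39.8 CPM with DMSO and 54.3 and 67.4 CPM with panobinostat (0.66, SE 0.29, adjusted p = 0.15), which is below the normoxic 253 and 478 CPM. For these 4 genes the groups do not overlap. The same holds for Ireb2 and for Slc11a2, the latter at 19.7 and 21.1 CPM with DMSO and 21.7 and 22.9 CPM with panobinostat. With 2 libraries per group, such a lack of overlap carries no weight of its own. The share of all genes without overlap was not computed. Hmox1 (0.03), Fth1 (0.04), Ftl1 (-0.09), Steap3 (-0.06), Ireb2 (-0.06) and Slc11a2 (0.13) had log2 differences within 1 SE of 0.

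In BMDM no gene was called for panobinostat (0.00% higher and 0.00% lower), with 3868 genes and 3 members at an unadjusted p under 0.05, and DESeq2 called 2023 genes and 2 members. The common coefficient of variation between replicates was 0.381 there, against 0.205 in BV2 cells of the same experiment. Slc11a1 held 438 and 319 CPM with DMSO and 48.1 and 69.2 CPM with panobinostat (-2.69, SE 0.39, adjusted p = 0.056), and DESeq2 called it (adjusted p = 5.4e-08). The summed myeloid markers were lower in the same libraries, at 804.0 and 1833 CPM against 3241 and 3948 CPM, and their part in the Slc11a1 difference was not tested. In bulk RNA fewer cells of a type and less RNA per cell cannot be told apart. Ftl1 held 7752 and 5471 CPM with DMSO and 2894 and 2604 CPM with panobinostat (-1.27, SE 0.40, adjusted p = 0.12), and was also called by DESeq2 (adjusted p = 0.0049). Tfrc held 18.8 and 15.2 CPM with DMSO and 31.8 and 29.8 CPM with panobinostat (0.86, SE 0.24, adjusted p = 0.099). The effect of panobinostat differed between BV2 cells and BMDM for no member (0.0188% of all genes higher and 0.00627% lower in BV2 cells). At an unadjusted p under 0.05 there were 2 members and 1793 of 15955 genes, and DESeq2 called 0 members.

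**Figure D5:**
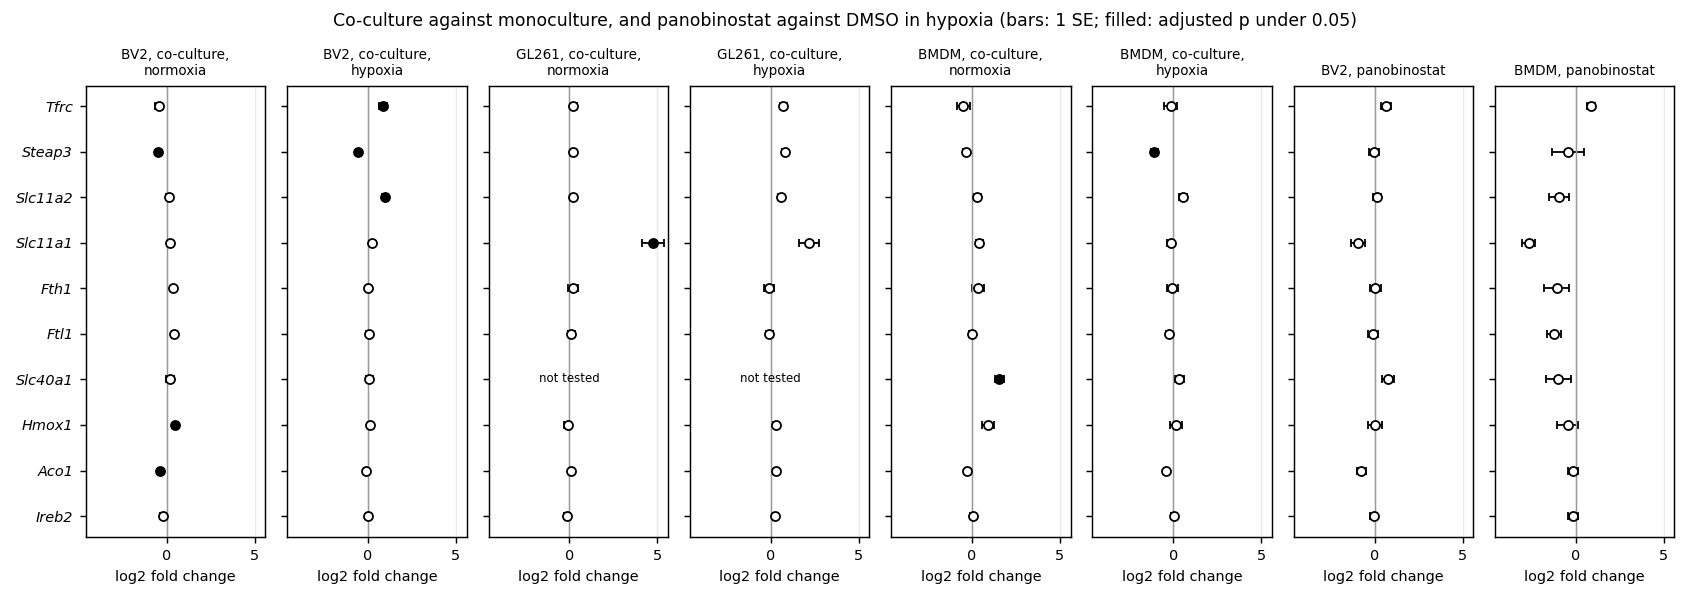
Log2 fold change (x axis) of the 10 members for co-culture against monoculture in 6 settings and for panobinostat against DMSO in hypoxia in 2; bars are 1 SE and filled points have an adjusted p under 0.05. No point is filled for panobinostat, where Slc11a1 lies at -0.92 in BV2 cells and -2.69 in BMDM.

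Between BV2 cells and BMDM in normoxia with DMSO 5 members differed, 2 higher and 3 lower in BV2 cells (17.1% and 27.1% of all genes, median log2 difference -0.11). Tfrc was 5.67-fold higher (log2 2.50, SE 0.31, adjusted p = 0.00017) and Slc40a1 15.6-fold higher in BV2 cells (log2 3.96, SE 0.67, adjusted p = 0.0011). The Slc40a1 value rests on BMDM libraries of 0.804 and 4.85 CPM, and its log2 difference was 3.18 without BMDM replicate 1 and 5.80 without replicate 2. These BMDM libraries held 23237 and 20453 CPM of the fibroblast markers, whose part was not tested, while the BMDM monocultures of the other experiment held 18.6 and 15.1 CPM of Slc40a1. Fth1 (log2 -1.59, SE 0.58, adjusted p = 0.048), Ftl1 (-0.88, SE 0.30, 0.038) and Aco1 (-0.84, SE 0.28, 0.036) were lower. When any 1 of the 4 libraries was left out, adjusted p was 0.055 to 0.15 for Ftl1 and 0.098 to 0.17 for Aco1. Fth1 was not called without BMDM replicate 1 (-0.64, adjusted p = 0.42) or BV2 replicate 1 (0.18) or 2 (0.14). Hmox1 (-1.45, adjusted p = 0.060) was called without BMDM replicate 2 (-1.86, adjusted p = 0.040). The hypoxia effect differed between these cells for no member (0.458% of all genes higher and 0.207% lower). At an unadjusted p under 0.05 there were 3 members and 2974 of 15955 genes, and DESeq2 called 3 members. The widest difference, that of Slc40a1 (-3.25, SE 0.86, adjusted p = 0.095), was called without normoxic BMDM replicate 2 (adjusted p = 0.038) or hypoxic BMDM replicate 2 (0.041).

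A list of 67 other iron genes was followed in the same fits. In BV2 monocultures 51 were tested, and 9 (17.6%) rose and 15 (29.4%) fell with hypoxia, beside 30.9% and 31.0% of all genes. Of 13 genes of mitochondrial iron and iron-sulfur clusters none rose and 6 fell, and of 11 genes of haem handling 5 rose and none fell. Glrx5, a glutaredoxin of iron-sulfur cluster assembly, fell from 109 ± 14.6 to 29.7 ± 0.856 CPM (SD, n = 2; log2 -1.87), Alad, an enzyme of haem synthesis, from 20.2 to 5.69 CPM (-1.84), and Cisd1 from 27.2 to 7.73 CPM (-1.82). Zfp36, an mRNA decay factor that can act on Tfrc mRNA, rose from 20.9 to 76.1 CPM (1.86). In co-culture 13 (25.5%) rose and 19 (37.3%) fell with hypoxia in BV2 cells, beside 35.2% and 32.1% of all genes, and with DMSO 4 of 49 (8.16%) rose and 12 (24.5%) fell, beside 17.2% and 20.2%. Among the genes of mitochondrial iron and iron-sulfur clusters 1 of 13 rose and 6 fell in co-culture, and 0 of 12 rose and 5 fell with DMSO. Among the genes of haem handling 4 of 11 rose and 3 fell in co-culture, and 2 of 10 rose and 1 fell with DMSO.

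In GL261 monocultures 7 of 56 other iron genes (12.5%) rose and 18 (32.1%) fell, beside 23.2% and 21.4% of all genes. In GL261 cells from co-culture 13 (23.2%) rose and 22 (39.3%) fell, beside 26.8% and 25.6%. Cpox, an enzyme of haem synthesis, rose from 17.5 ± 0.374 to 54.8 ± 1.57 CPM in monoculture (log2 1.65), and Flvcr2, a membrane transporter, from 13.3 to 29.1 CPM (1.13). Slc22a17, a receptor for lipocalin, fell from 82.2 to 23.9 CPM (-1.79). In BMDM monocultures 6 of 54 (11.1%) rose and 5 (9.26%) fell, beside 13.3% and 10.6% of all genes, and in co-culture 5 (9.26%) rose and 10 (18.5%) fell, beside 17.5% and 17.3%. Slc39a8, a zinc and iron transporter, rose from 12.1 ± 1.29 to 41.1 ± 2.16 CPM (SD, n = 2; log2 1.77) in monoculture and by 1.17 in co-culture, and Isca1, of iron-sulfur cluster assembly, rose by 1.27 and 1.16. Hfe, a partner of the transferrin receptor, fell in BMDM from co-culture from 89.8 ± 16.6 to 36.7 ± 8.04 CPM (SD, n = 3; log2 -1.29). In BMDM with DMSO edgeR called 0 of 57, with 13 at an unadjusted p under 0.05, beside 3786 of 14914 genes. The median log2 change of the list was -0.07, -0.11 and -0.21 in BV2 cells alone, in co-culture and with DMSO, -0.11 and -0.11 in GL261 cells, and -0.09, -0.07 and 0.08 in BMDM, beside all-gene medians between -0.04 and 0.04.

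Co-culture changed 10 of 51 other iron genes in normoxic BV2 cells, 6 higher (11.8%) and 4 lower (7.84%), beside 5.77% and 9.14% of all genes. In hypoxic BV2 cells it changed 8, 4 higher and 4 lower (7.84% each), beside 8.13% and 7.57%. Ncoa4, the receptor that delivers ferritin to autophagy, was lower in normoxic BV2 co-culture, at 65.6 ± 0.545 CPM against 125 ± 0.403 CPM alone (SD, n = 2; log2 -0.93). Cp, a ferroxidase, was called higher in co-culture in BV2 cells and in BMDM, by 1.58 to 4.24. In normoxic BMDM it held 0.372 CPM alone and 7.31 CPM in co-culture. There it passed the filter on low counts only through other groups, so that call carries no weight of its own. Cp is 115-fold higher in GL261 (218.7 CPM) than in BV2 monocultures in normoxia. GL261 RNA was estimated at 1.34% to 3.71% of the normoxic BMDM co-culture libraries. The part of the partner's RNA in the Cp calls was not tested. In GL261 cells edgeR called 0 of 56 with co-culture at either oxygen level. At an unadjusted p under 0.05 there were 7 in normoxia and 5 in hypoxia, beside 1287 and 2282 of 15189 genes. With panobinostat 5 of 49 were higher (10.2%) and 2 lower (4.08%) in BV2 cells, beside 7.21% and 7.39% of all genes, among them Iscu, the scaffold of cluster assembly (log2 1.40), and Blvra, biliverdin reductase (-1.43).

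Over all 38 libraries, with the mean of each cell type in each table taken out, the genes whose log2 CPM was most like a member's among 7219 candidates were Nup160 (Pearson r 0.908) and Abce1 (0.868) for Tfrc, and Paqr7 (0.947) and Abca2 (0.915) for Steap3. For Hmox1 they were Arih2 (0.953) and Ubap1 (0.952), and for Slc11a2 Tcea1 (0.867) and Pex14 (0.850). Between members, Steap3 and Hmox1 had an r of -0.811 and Fth1 and Ftl1 one of 0.631. These values describe libraries that share oxygen levels and treatments, and were not tested.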

How the data were processed

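The deposited files are tables of whole-number read counts per gene, made by the authors. Per the submitters' processing notes, tools included Trimmomatic 0.36, STAR 2.6, HTSeq 0.9.1 and, for the BV2 and GL261 libraries, Picard 2.17.1, with mm10; the annotation release and strand setting are not given in the sources used here. Per the labels' protocols, cells were fixed in 3% glyoxal and poly(A) RNA was sequenced; how cell types were separated after co-culture is not given in the sources used here. Counts were analysed as deposited with edgeR 4.0.16 in R 4.3.3 (filterByExpr, TMM, quasi-likelihood F test), 1 fit per cell type and experiment, and a joint fit for comparisons between cell types of 1 table. CPM values are TMM-scaled within a fit unless called plain. The exceptions are floors, marker sums, partner shares, and the products of share and level with the levels set beside them. These are plain CPM. Adjusted p-values cover all genes tested (13294 to 16882) and the threshold was 0.05. Fits were tested on simulated data.

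The members and lists were chosen with earlier results of these data known. All members are named; of the other iron genes, at most the 4 called genes with the largest log2 change and a mean log2 CPM of at least 3 are named per comparison. Partner RNA shares were estimated from genes with 20 CPM or more in the partner and a level at least 100 times that of the cell itself. Same-numbered normoxic and hypoxic BMDM co-cultures deviated together (r = 0.553, 0.233 and 0.371), so the replicate block is given for Fth1 in that comparison. Groups of 2 yield only 1 such r per pair of groups. It was -0.170 to 0.474 in BV2 and 0.0368 to 0.624 in GL261 cells. In the panobinostat experiment it was 0.228 to 0.515 in BV2 cells and 0.323 to 0.668 in BMDM. The labels name no shared animal or day, and the main fits leave pairing out. Where the replicate block moved a count of members called, this is given at the end. Hairpin sequences are from GENCODE M21 transcripts and mRNA lengths from RefSeq. Alternatives were DESeq2 1.42.0, its size factors, no filter, the replicate block, each library left out, only the groups compared, genes high in the partner left out, and ferritin pseudogene counts added. Libraries held 9634700 to 27238933 counts.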

Additional observations from a re-analysis of the deposited data

Results flagged for a closer look

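These results are listed because a test of the difference between groups passed the threshold (edgeR's quasi-likelihood test, Benjamini-Hochberg adjustment); no group held enough libraries to test for a library that stands apart. The hypoxia effect on Tfrc, the transferrin receptor, was 1.33 higher on the log2 scale in BV2 cells from co-culture than alone. Between BV2 and GL261 monocultures the hypoxia effect differed by -2.82 for Tfrc, by -1.38 for the ferrous iron transporter Slc11a2, by 0.66 for Hmox1 and by 0.59 for Aco1. Tfrc and Slc11a2 fell in BV2 and rose in GL261 monocultures. The causes were not tested.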

How the results depend on the processing

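Counts of members called were recomputed under each alternative, and no direction reversed among values called in the main or the alternative setting. Changes of sign in values called in neither were not counted. Where leaving out a library leaves 1 in a group, that library is assumed to vary like the other groups. Of 2674 single-member values, 2461 kept their side of the threshold, 113 lost the call and 100 gained it. With co-culture, normoxic BV2 cells had 3 members called, 5 with no filter, 5 with the replicate block and 0 to 4 leaving out 1 library; the BV2 difference in hypoxia effect had 1, 0 with DESeq2 size factors, 3 with no filter and 0 to 2 leaving out 1 library. GL261 hypoxia in co-culture had 6, and 3 to 6 leaving out 1 library. GL261 co-culture in normoxia had 1, 0 without partner-high genes, which removes Slc11a1, and 0 to 1 leaving out 1 library; in hypoxia it had 0, 2 by DESeq2, 4 with no filter, 4 with the replicate block and 0 to 1 leaving out 1 library. BMDM hypoxia alone had 5, and 0 to 2 leaving out 1 library; in co-culture it had 4, 2 with only the groups compared and 2 to 5 leaving out 1 library. BMDM co-culture in normoxia had 1, 2 with no filter and 0 to 1 leaving out 1 library; in hypoxia it had 1, 2 with no filter, 0 with only the groups compared and 0 to 2 leaving out 1 library; the difference in hypoxia effect had 0, and 1 with no filter. Panobinostat in BV2 cells had 0, 3 with no filter, 4 with the replicate block and 1 with only the groups compared; in BMDM it had 0, 2 by DESeq2, 1 with no filter and 2 with the replicate block. BMDM hypoxia with DMSO had 0, 3 by DESeq2, 5 with no filter and 5 with the replicate block. The hypoxia effect in BV2 against GL261 had 4, and 2 to 5 leaving out 1 library. BV2 against BMDM had 5, 8 with the replicate block and 2 to 4 leaving out 1 library; their hypoxia effects had 0, 3 by DESeq2, 3 with no filter, 2 with the replicate block and 0 to 2 leaving out 1 library, and their panobinostat effects 0, and 2 with no filter. The causes were not tested. Over all genes the number called (as reported, by DESeq2, with no filter, with the replicate block) was 72, 2062, 3259 and 2127 for BMDM hypoxia with DMSO, 0, 2023, 2867 and 2044 for panobinostat in BMDM, 106, 1106, 1372 and 1298 for the hypoxia effect in BV2 against BMDM, 4, 221, 613 and 166 for their panobinostat effect, 78, 144, 361 and 226 for GL261 co-culture in normoxia, 211, 453, 737 and 654 in hypoxia, and 243, 582, 1062 and 432 for BMDM co-culture in normoxia. It was 1053, 1623 by DESeq2 and 2141 with no filter for BMDM co-culture in hypoxia, 316, 676 and 981 for the BV2 difference in hypoxia effect, and 1941, and 4025 with the replicate block, for panobinostat in BV2 cells. With only the groups compared it was 6289 in place of 3542 for BMDM hypoxia alone, 231 for BMDM co-culture in hypoxia, 124 and 20 for GL261 co-culture in normoxia and hypoxia, and 0 for BMDM hypoxia with DMSO. Without partner-high genes, which also lowers the number tested, co-culture called 1190 genes in place of 2152 and 1403 in place of 2266 in normoxic and hypoxic BV2 cells, 14 in normoxic GL261 cells, and 20 and 82 in normoxic and hypoxic BMDM. Mean correlations of same-numbered libraries were 0.0739 (BV2), 0.309 (GL261), 0.191 (BMDM), and 0.408 and 0.466 (BV2 and BMDM of the panobinostat experiment). In GL261 hypoxia in co-culture the replicate block also called Ireb2 (0.29, adjusted p = 0.044) and Fth1 (-0.67, adjusted p = 0.0037), and in BMDM hypoxia with DMSO it called Tfrc (adjusted p = 0.019), Steap3 (0.037), Slc11a2 (0.036), Slc40a1 (0.035) and Hmox1 (0.017).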
